A study of Homo sapiens with 26 samples.

Results

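A set of 50 genes for mitosis and chromosome segregation was followed through both RNA sequencing experiments on MV4-11, a long-established human cell line of acute myeloid leukaemia with an activating mutation of FLT3. The genes form a named list, chosen by function and matched by symbol. It was chosen with earlier results of these data known, so the shares of all genes given beside it are a description and not a test. All 50 are among the 16430 genes of the count tables, and all 50 are among the 64235 entries of the FPKM tables. They fall into 7 roles: 10 kinases, cyclins and regulators of entry, 8 genes of the spindle checkpoint and anaphase, 4 of the chromosomal passenger complex, 7 of the centromere and kinetochore, 10 kinesins and spindle proteins, 4 of cytokinesis, and 7 for condensin, cohesin and chromosome structure.

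Most of these genes are transcribed late in the cell cycle. In quiescent and G1 cells the DREAM complex represses them through an element near the gene start, and in G2 the MuvB core with MYBL2 and FOXM1 activates them. CDK1 with cyclin B drives entry into mitosis, the spindle checkpoint holds anaphase until kinetochores are attached, and CDC20 then turns on the anaphase-promoting complex that releases separase. Their RNA is therefore widely used as a readout of cycling cells.

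The drug experiment held 18 libraries in 6 groups of 3. At 48 h the groups were DMSO (the solvent), 100 nM dexamethasone (a synthetic glucocorticoid), 10 nM quizartinib (an inhibitor of the FLT3 kinase), and both drugs. At 5 days they were 10 nM quizartinib and both drugs, where dexamethasone joined on day 3. No DMSO or dexamethasone group was taken at 5 days. The recovery experiment held 4 groups with 2 libraries each: untreated cells, the survivors of 48 h in 100 nM quizartinib, and survivors kept without drug for 13 or 30 days. All libraries come from 1 cell line, and no label tells if the replicates came from different cultures, so p-values reflect only how far these libraries spread, which may be technical. RNA was taken from whole cultures, so fewer cycling cells and less mitotic RNA per cell cannot be told apart.

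Total counts ran from 14795190 to 24990476 per library in the drug experiment, and the depth behind the FPKM values is unknown. Myeloid markers summed over 10 measured genes to 1118 to 2496 CPM (the TMM-scaled share of a library's counts). Over 11 genes they summed to 1397 to 7871 FPKM, of which LYZ gave 521 to 7123 FPKM. Not all of them were high. MPO ran from 0.930 to 6.35 CPM and ITGAM from 1.77 to 8.27 CPM. CD14 ran from 0 to 1.95 FPKM and was not in the count tables. FLT3 itself ran from 299 to 729 CPM. T cell markers summed to at most 0.162 FPKM and erythroid markers to at most 0.0194 FPKM, with HBB listed at 0. B cell markers summed to 1.02 to 4.28 FPKM and 1.59 to 3.97 CPM. Epithelial and fibroblast markers summed to 1.62 to 8.76 FPKM and 3.00 to 15.5 CPM, of which the keratin KRT8 gave up to 13.0 CPM. The part of other cell types in the results was not tested. The small RNAs 7SK and 7SL took 9.73% to 12.4% of the counts with DMSO or dexamethasone and 16.0% to 31.6% in the libraries with quizartinib. The highest share was that of replicate 3 of the 48 h combination, where the other 2 replicates had 21.5% and 22.1%. Their part in the levels below was not tested beyond refitting without them. In the recovery experiment, replicate 2 of the 13 day group stood apart. Its FPKM values summed to 3714000 over all entries, against 2241000 to 2548000 in the other 7 libraries. Its largest entry held 32.4% of that sum. A dominant entry was not peculiar to it. In each of the other 7 libraries the largest entry held a smaller share, but at least 19.07%. Comparisons that use replicate 3 of the 48 h combination or replicate 2 of the 13 day group are also counted without that library.

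With 10 nM quizartinib at 48 h, all 50 genes were called lower than with DMSO, at a Benjamini-Hochberg adjusted p under 0.05 in edgeR's quasi-likelihood test over all genes. Of all 16430 genes tested, 30.4% were called lower. The median log2 fold change of the 50 was -5.36, beside 0.02 over all genes, and the largest adjusted p among them was 3.99e-07. In each of the 50 genes, the 3 quizartinib libraries lay below the 3 DMSO libraries, which held for 31.9% of all genes. The genes kept a median of 2.42% of their DMSO mean level, 35 of them kept under 5%, and 14 kept under 1%.

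The summed level of the 50 genes shows the size of the loss. It was 5694, 5958 and 5586 CPM in the DMSO libraries, and 374, 365 and 386 CPM in the quizartinib libraries at 48 h. The combination libraries held 558, 543 and 472 CPM at 48 h. These groups do not overlap, and replicate 3 of the combination was its lowest library. The means were 5746 ± 191 CPM for DMSO, 375 ± 10.6 CPM for quizartinib and 524 ± 45.9 CPM for the combination (SD, n = 3 each), so the combination stood at 9.12% of the DMSO mean and quizartinib at 6.53%. SMC4 made up much of what remained, at 181, 172 and 179 CPM with quizartinib.

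**Figure D1:**
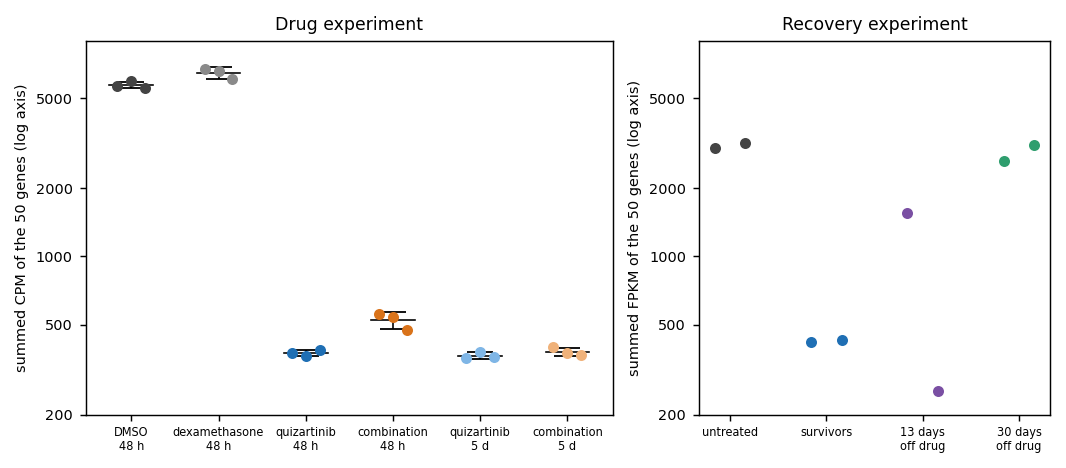
Summed level of the 50 mitosis genes in each library on log axes, as CPM in the drug experiment (left) and FPKM in the recovery experiment (right). Points are libraries, and lines with bars are the mean and SD of 3 libraries. The combination libraries at 48 h (472 to 558 CPM) lie above the quizartinib libraries (365 to 386 CPM), and the 13 day libraries split at 1561 and 253 FPKM.

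Among the regulators of entry, FOXM1, the transcription factor that activates many of the other members, lost the most of the anchor genes. Its level was 128, 108 and 93.6 CPM with DMSO and 0.565, 0.563 and 0.591 CPM with quizartinib. With the combination it was 2.72, 3.88 and 3.37 CPM, so the 3 groups were fully separate and the combination lay far nearer to quizartinib than to DMSO. The log2 fold change of FOXM1 was -7.57 ± 0.21 (standard error, derived from the test's F statistic) for quizartinib against DMSO. For the combination against quizartinib it was 2.52 ± 0.24 (edgeR adjusted p = 1.77e-06).

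CDK1, the kinase that drives mitotic entry, stood at 60.6, 79.7 and 82.2 CPM with DMSO, at 2.62, 2.30 and 1.86 CPM with quizartinib, and at 4.84, 4.49 and 2.55 CPM with the combination. Replicate 3 of the combination fell within the quizartinib range, unlike the other 2. CDK1 rose over quizartinib by 0.83 ± 0.22 on the log2 scale (edgeR adjusted p = 0.0242). PLK1, the polo-like kinase of the spindle poles and kinetochores, stood at 138, 118 and 111 CPM with DMSO and at 2.98, 2.51 and 2.77 CPM with quizartinib. Its combination libraries held 4.71, 5.90 and 4.72 CPM, all above quizartinib, and PLK1 rose by 0.89 ± 0.15 on the log2 scale (edgeR adjusted p = 7.89e-04). CCNB1, the cyclin B1 partner of CDK1, behaved otherwise: it stood at 5.44, 4.15 and 4.68 CPM with quizartinib and at 5.90, 5.95 and 4.07 CPM with the combination. These ranges overlap, and the log2 fold change of 0.17 ± 0.14 was not called (edgeR adjusted p = 0.570). CCNB2, the related cyclin B2, rose by 1.00 ± 0.12 on the same scale (edgeR adjusted p = 2.13e-05), and CCNA2, cyclin A2, by 1.32 ± 0.22 (edgeR adjusted p = 7.14e-04). In this role 8 of 10 genes rose with the combination over quizartinib, from TPX2, which activates AURKA at the spindle, at 0.79 ± 0.10 to PBK, a mitotic kinase, at 2.54 ± 0.59. PBK was near the floor, at 0.0513, 0.102 and 0.0909 CPM with quizartinib and 0.637, 0.705 and 0.109 CPM with the combination. Its replicate 3 of the combination was close to the quizartinib libraries. AURKA, the centrosome kinase, was not called at -0.14 ± 0.16 and had the lowest value of the 50.

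In the spindle checkpoint and anaphase role, 5 of 8 genes rose with the combination over quizartinib. CDC20, the activator of the anaphase-promoting complex, stood at 132, 108 and 93.3 CPM with DMSO, at 0.616, 1.18 and 0.818 CPM with quizartinib, and at 4.03, 3.08 and 2.12 CPM with the combination. All combination libraries of CDC20 lay above all quizartinib libraries, and its log2 fold change between them was 1.84 ± 0.31 (edgeR adjusted p = 6.84e-04). UBE2C, the ubiquitin-conjugating enzyme of the same complex, had the highest fold of the role, 2.99 ± 0.42 (edgeR adjusted p = 1.13e-04). Its libraries held 0.411, 0 and 0.364 CPM with quizartinib against 2.25, 2.60 and 1.47 CPM with the combination. The checkpoint genes BUB1B, BUB1 and MAD2L1 had the smallest folds of the role. BUB1B, a checkpoint kinase-like protein, stood at 108, 105 and 98.5 CPM with DMSO, 5.65, 5.78 and 4.46 CPM with quizartinib, and 6.50, 7.79 and 5.92 CPM with the combination. Its groups were separate but close, and the log2 fold change of 0.35 ± 0.14 was not called (edgeR adjusted p = 0.135), nor were those of BUB1 at 0.38 ± 0.13 and MAD2L1 at 0.45 ± 0.14. With the replicate number as a block BUB1B and BUB1 were called (edgeR adjusted p = 0.0301 and 0.0183). TTK, the checkpoint kinase also called MPS1, rose by 1.11 ± 0.27, ESPL1 (separase) by 1.45 ± 0.20 and PTTG1 (securin, the inhibitor of separase) by 0.52 ± 0.14.

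The chromosomal passenger complex corrects attachments between kinetochores and microtubules. Its kinase AURKB stood at 58.4, 51.5 and 45.6 CPM with DMSO, at 0.667, 0.358 and 0.409 CPM with quizartinib, and at 1.40, 1.72 and 1.25 CPM with the combination. The groups of AURKB do not overlap, and the fall with quizartinib was -6.75 ± 0.19 (log2). AURKB rose over quizartinib by 1.61 ± 0.25 (edgeR adjusted p = 2.71e-04), BIRC5 (survivin) by 2.00 ± 0.37 and CDCA8 (borealin) by 1.10 ± 0.21. INCENP, the scaffold of the complex, was not called at 0.34 ± 0.16, and it also fell least in this role with quizartinib (-3.04 ± 0.16).

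At the centromere, 4 of 7 genes rose with the combination over quizartinib. CENPA, the centromeric histone H3 variant, stood at 46.3, 47.5 and 37.9 CPM with DMSO, at 4.36, 4.56 and 4.50 CPM with quizartinib, and at 5.18, 5.24 and 4.51 CPM with the combination. The lowest combination library of CENPA fell within the quizartinib range, and the log2 fold change of 0.16 ± 0.15 was not called (edgeR adjusted p = 0.633). HJURP, the chaperone that loads CENPA, differed from it: 0.308, 0.154 and 0.364 CPM with quizartinib against 2.63, 2.51 and 1.57 CPM with the combination, which gave 3.00 ± 0.34 on the log2 scale (edgeR adjusted p = 1.02e-05). NDC80, the microtubule-binding subunit of the outer kinetochore, held 1.03, 1.38 and 1.09 CPM with quizartinib and 2.63, 1.98 and 1.79 CPM with the combination. These groups do not overlap, and NDC80 rose by 0.88 ± 0.24 (edgeR adjusted p = 0.0230). CENPE, a kinetochore motor, rose by 1.86 ± 0.19 and CENPF, a large kinetochore protein, by 1.47 ± 0.14. NUF2 and SPC25, partners of NDC80, were not called at 0.94 ± 0.32 and 1.91 ± 0.73. SPC25 was at most 0.271 CPM in each of these libraries.

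All 10 kinesins and spindle proteins rose with the combination over quizartinib. KIF18B, a kinesin that shortens microtubules, had both the deepest fall of the 50 with quizartinib (-8.53 ± 0.42) and the largest rise with the combination (3.41 ± 0.60, edgeR adjusted p = 9.52e-04). It stood at 49.4, 44.0 and 40.7 CPM with DMSO, at 0.0513, 0 and 0.273 CPM with quizartinib, and at 1.66, 1.63 and 0.434 CPM with the combination. Replicate 3 was again the lowest combination library, though above all of quizartinib. KIF20A, a kinesin of the central spindle, stood at 57.9, 52.8 and 53.1 CPM with DMSO, at 0.411, 0.307 and 0.318 CPM with quizartinib, and at 2.12, 2.42 and 1.36 CPM with the combination, a rise of 2.51 ± 0.28 over quizartinib (edgeR adjusted p = 1.05e-05). KIF11, the motor that separates the spindle poles, moved less in both directions. It stood at 87.5, 106 and 94.9 CPM with DMSO, 6.32, 6.35 and 7.05 CPM with quizartinib, and 10.3, 10.1 and 7.38 CPM with the combination, a rise of 0.50 ± 0.12 (edgeR adjusted p = 0.0124). PRC1, which bundles microtubules at the midzone, rose least, by 0.48 ± 0.12.

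The 4 cytokinesis genes had a median log2 fold change of -3.06 with quizartinib, and 1 of them rose with the combination. ECT2, the exchange factor that turns on RhoA at the cleavage furrow, stood at 41.7, 44.8 and 38.2 CPM with DMSO, 5.90, 5.89 and 4.96 CPM with quizartinib, and 8.19, 6.69 and 5.32 CPM with the combination. Its combination and quizartinib ranges overlap, and the log2 fold change of 0.28 ± 0.16 was not called (edgeR adjusted p = 0.346). ANLN, a scaffold of the contractile ring, and RACGAP1, of the centralspindlin complex, were not called either, at 0.22 ± 0.09 and 0.24 ± 0.10. IQGAP3, a scaffold of the same family as IQGAP1, was the exception. It held 1.28, 1.38 and 1.55 CPM with quizartinib and 4.37, 4.32 and 7.76 CPM with the combination, a rise of 1.94 ± 0.23 (edgeR adjusted p = 1.54e-05), and its highest value was in replicate 3.

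In the chromosome structure role, MKI67, the proliferation marker Ki-67 that coats mitotic chromosomes, had the smallest adjusted p of the 50 between the combination and quizartinib. It stood at 1023, 928 and 821 CPM with DMSO, at 5.29, 5.53 and 8.37 CPM with quizartinib, and at 31.8, 31.8 and 33.5 CPM with the combination. The 3 combination libraries agreed closely, and MKI67 rose by 2.33 ± 0.17 over quizartinib (edgeR adjusted p = 5.60e-08). TOP2A, the topoisomerase that untangles sister chromatids, stood at 428, 533 and 559 CPM with DMSO, 7.50, 8.19 and 8.00 CPM with quizartinib, and 26.5, 21.9 and 15.7 CPM with the combination, a rise of 1.44 ± 0.17 (edgeR adjusted p = 1.51e-05). NCAPG, a condensin I subunit, held 1.69, 1.28 and 1.32 CPM with quizartinib and 2.85, 2.51 and 1.90 CPM with the combination, a rise of 0.77 ± 0.17 (edgeR adjusted p = 5.54e-03). NCAPH, its partner in condensin I, rose by 2.27 ± 0.31. The SMC ATPases that both condensins share stood apart. SMC4 was at 279, 352 and 352 CPM with DMSO, 181, 172 and 179 CPM with quizartinib and 186, 188 and 153 CPM with the combination, and it fell by only 0.89 ± 0.09 (log2) with quizartinib. SMC2 fell by 2.39 ± 0.10. Neither was called between the combination and quizartinib (-0.01 ± 0.09 and 0.05 ± 0.10). The SMC4 gene also holds the microRNA genes MIR15B and MIR16-2 on its strand and overlaps TRIM59 and IFT80 on the opposite strand. Whether the counting used strand is not stated, so reads of these genes cannot be told apart from those of SMC4.

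**Figure D2:**
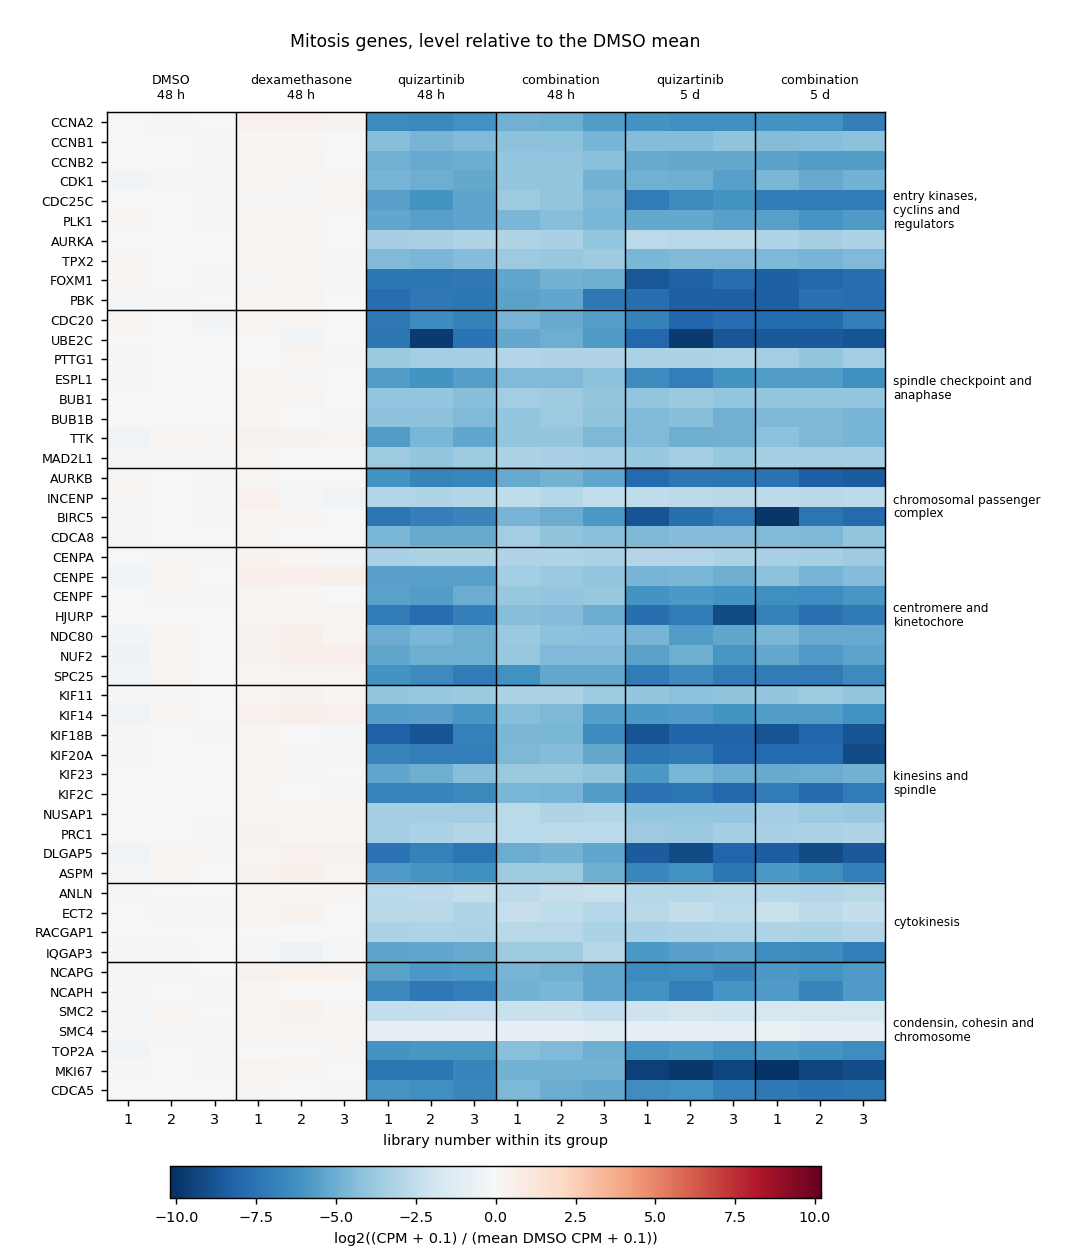
Level of each of the 50 genes (rows, by role) in each of the 18 libraries of the drug experiment (columns), as log2 of the CPM plus 0.1 over the mean DMSO CPM plus 0.1. Blue is below and red above the DMSO mean. All 4 groups with quizartinib are blue for every gene, the 48 h combination is the palest of the 4 for most genes, and SMC4 is nearly white throughout.

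In all, 36 of the 50 genes rose with the combination over quizartinib at 48 h and none was called lower by edgeR, also at an unadjusted p under 0.05. DESeq2 likewise called 36 higher and 0 lower. Of all genes, 5.62% were called higher and 4.63% lower. The median log2 fold change of the 50 was 1.07, beside 0.01 over all genes, and 48 of the 50 values were above 0. In 38 of 50 the combination libraries all lay above the quizartinib libraries, which held for 15.3% of all genes. The rise was partial. Against DMSO, all 50 genes stayed lower with the combination, with a median log2 fold change of -4.18, where 31.8% of all genes were called lower, and the median gene stood at 5.41% of its DMSO mean. All 50 were also called lower than with DMSO without replicate 3 of the combination. In that fit 36 genes were called over quizartinib, with a median of 1.26. Without all libraries numbered 3 at 48 h, 37 were called with a median of 1.18.

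In the main fit, which did not pair the libraries, few of these genes were called with dexamethasone alone. It gave 3 of 50 higher than DMSO and 0 lower, with 15 higher and 0 lower at an unadjusted p under 0.05 in edgeR, where 5.50% of all genes were called higher and 6.63% lower. The 3 were CENPE at 0.52 ± 0.13 (adjusted p = 0.0142), NCAPG at 0.37 ± 0.11 (adjusted p = 0.0287) and SMC2 at 0.32 ± 0.09 (adjusted p = 0.0322). CENPE held 54.4, 77.6 and 70.9 CPM with DMSO and 98.9, 97.5 and 94.6 CPM with dexamethasone, which do not overlap. The count of 3 fell to 0 without replicate 1 of DMSO and to 1 without replicate 1 or replicate 2 of dexamethasone, and DESeq2 called 7 higher and 0 lower. It rose to 6 with the replicate number as a block, where 6.85% of all genes were called higher. Without the libraries numbered 3 at 48 h it was 10. No share of all genes is given for the counts of 7 and 10, so they cannot be weighed against all genes. The summed level was 6780, 6621 and 6070 CPM with dexamethasone, all above DMSO, and the median gene stood at 112% of its DMSO mean. In 20 of 50 genes all dexamethasone libraries lay above DMSO, beside 10.5% of all genes. IQGAP3 had the lowest share, 79.4% of DMSO.

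The effect of dexamethasone in the presence of quizartinib was then set against its effect in the absence of quizartinib (the interaction of both drugs at 48 h). This difference was called above 0 in 22 of 50 genes and below 0 in none, by edgeR, also at an unadjusted p under 0.05 and by DESeq2, where 1.49% of all genes were called above 0 and 0.749% below. The median was 0.84 on the log2 scale. The largest were KIF18B at 3.38 ± 0.65 (adjusted p = 9.76e-03), UBE2C at 3.08 ± 0.47 (adjusted p = 1.71e-03), HJURP at 2.72 ± 0.38 (adjusted p = 9.68e-04) and FOXM1 at 2.45 ± 0.28 (adjusted p = 1.44e-04). KIF18B, UBE2C and HJURP had only 7, 16 and 17 counts over the whole 48 h quizartinib group. The difference is one of log2 folds. In CPM the mean summed level rose more without quizartinib, from 5746 to 6490, than with it, from 375 to 524. These comparisons share the quizartinib and combination libraries with those above. Without replicate 3 of the combination 24 genes were called, and over all single libraries left out the count ran from 17 to 24.

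At 5 days the summed level under quizartinib was about as low as at 48 h, though SMC4 alone gave 172, 182 and 175 CPM of it. The summed level was 357, 379 and 358 CPM with quizartinib and 397, 374 and 368 CPM with the combination, ranges that overlap. Against DMSO of 48 h, all 50 genes were lower with quizartinib at 5 days, with a median log2 fold change of -5.53, where 32.1% of all genes were called lower. Time and the lack of a DMSO group at 5 days cannot be told apart from drug in that comparison. Against quizartinib at 48 h, 4 genes were lower and 1 was higher at 5 days, beside 2.28% and 0.889% of all genes. At an unadjusted p under 0.05 in edgeR, 12 were lower and 5 higher. The median log2 fold change in DESeq2 was -0.28. In 13 of 50 genes all 5 day libraries lay below all 48 h libraries, beside 15% of all genes. MKI67 fell most, from 5.29, 5.53 and 8.37 CPM to 1.19, 0.885 and 1.27 CPM, or -2.52 ± 0.22 on the log2 scale (edgeR adjusted p = 1.3e-05). The others were NCAPG (-0.89 ± 0.21), CENPF (-0.66 ± 0.15), NUSAP1, a microtubule-bundling protein (-0.48 ± 0.10), and SMC2, which rose by 0.39 ± 0.10. The call of SMC2 was lost without any 1 of these 6 libraries. The count of 4 fell to 2 without replicate 1 or 3 at 48 h or replicate 1 at 5 days, and to 1 without replicate 2 or 3 at 5 days.

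The rise with dexamethasone seen at 48 h was not seen in the 5 day libraries, where the combination had held dexamethasone from day 3. Between the combination and quizartinib at 5 days, 1 gene was higher and 1 lower, beside 4.60% and 4.04% of all genes, and the median log2 fold change was 0.05. PRC1 was higher, at 13.0, 13.4 and 15.1 CPM against 9.42, 9.16 and 11.7 CPM (0.46 ± 0.13, edgeR adjusted p = 0.0308). IQGAP3 was lower, at 0.620, 0.570 and 0.333 CPM against 0.903, 1.15 and 1.32 CPM (-1.18 ± 0.35, edgeR adjusted p = 0.0456), the opposite direction to 48 h. Each of these calls was lost when single libraries were left out: the higher call without replicate 1 or 2 of quizartinib or replicate 2 or 3 of the combination, and the lower call without any 1 of the 6 libraries, where the count was 0. MKI67 stood at 0.806, 1.33 and 1.67 CPM with the combination, which overlaps quizartinib, and FOXM1 at 0.248, 0.316 and 0.428 CPM beside 0.169, 0.260 and 0.423 CPM with quizartinib. In 5 of 50 genes the combination libraries all lay above quizartinib, beside 16.1% of all genes.

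Set directly against its own 48 h libraries, the combination at 5 days was lower in 37 of 50 genes and higher in 1, where 5.48% and 3.78% of all genes were called, and the median was -1.21. Without replicate 3 of the 48 h combination 36 were lower and 1 higher, with a median of -1.31. FOXM1 fell by 3.27 ± 0.28, KIF20A by 4.61 ± 0.40, MKI67 by 4.64 ± 0.21, AURKB by 3.87 ± 0.36, CDC20 by 2.51 ± 0.35, TOP2A by 1.55 ± 0.17 and PLK1 by 1.22 ± 0.16, all on the log2 scale, with the largest edgeR adjusted p among these at 2.73e-04. SMC2 alone rose, by 0.56 ± 0.10. CDC25C, the phosphatase that activates CDK1, had no counts in any 5 day combination library and 1.02, 0.749 and 0.489 CPM in the 48 h combination. It was at least 13.3-fold lower than in the 48 h combination and at least 242-fold lower than in DMSO, with the floor set at 3 counts for the whole group, a bound for counting error alone. The dexamethasone effect under quizartinib was also compared between times, as the 5 day effect minus the 48 h effect. This difference was called below 0 in 7 of the 50 genes and above 0 in none by edgeR, also at an unadjusted p under 0.05. Over all genes the share was 0.0487%, which is 8 genes. The 7 were IQGAP3 at -3.12 ± 0.42, CDCA5 (sororin, which protects cohesion) at -2.74 ± 0.41, MKI67 at -2.11 ± 0.33, CENPF at -1.62 ± 0.21, TOP2A at -1.52 ± 0.25, CCNB2 at -1.45 ± 0.19 and TPX2 at -0.83 ± 0.14. The count of 7 fell to 4 without replicate 1 or replicate 2 of quizartinib at 48 h, replicate 1 of the combination at 48 h, replicate 2 of quizartinib at 5 days or replicate 3 of the combination at 5 days, and to 3 without replicate 1 of quizartinib or replicate 2 of the combination at 5 days. It was 9 without replicate 3 of the combination at 48 h, and DESeq2 called 14 lower. At 48 h dexamethasone was given along with quizartinib, and in the 5 day groups it joined on day 3, after quizartinib alone. Time, the order of the drugs and the earlier exposure to quizartinib cannot be told apart.

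**Figure D3:**
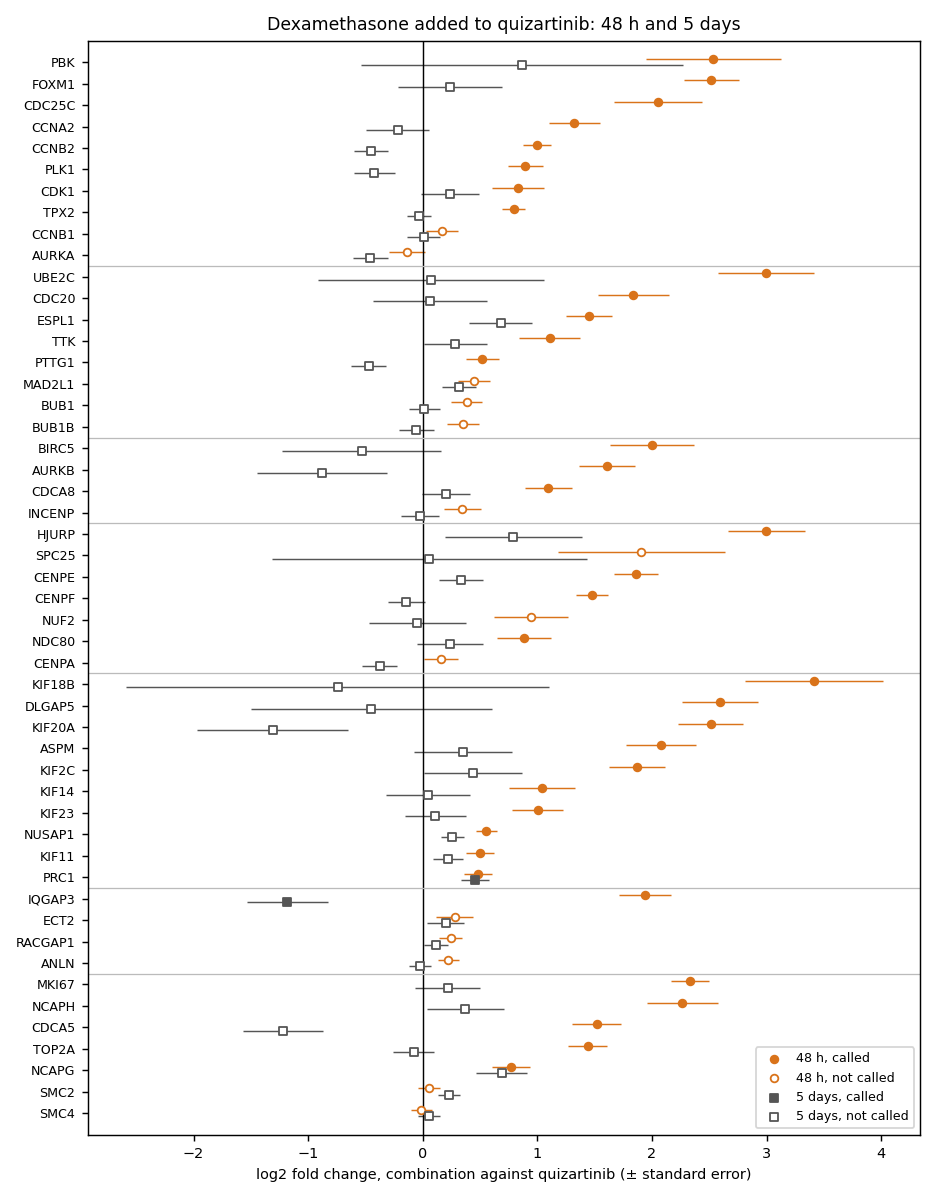
Log2 fold change of the combination against quizartinib for each gene, by role, at 48 h (circles) and 5 days (squares), with standard errors. Filled symbols are called at an adjusted p under 0.05. At 48 h 36 genes are called higher and at 5 days only PRC1 is, and IQGAP3 is called lower. CDC25C has no symbol at 5 days because the combination had no counts.

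The promoters of these genes were examined because the members moved together. RefSeq promoter windows on GRCh38.p14, from 250 bases before to 50 after the gene start, were matched for 42 members (51 windows). They were searched on both strands for the cell cycle genes homology region, the element bound by MuvB complexes, as the letters TTTGAA or TTCGAA, for the CCAAT box (CCAAT), and for E2F letters (TTTGGCGC or TTTCCCGC). The homology letters were found in 34 of 42 members (81.0%) and in 15.6% of 10390 genes of the count tables with a window. Within 50 bases of the start they were found in 28 of 42 members (66.7%) and in 4.86% of those genes. A CCAAT box was found in 31 members (73.8%, beside 42.8%) and both elements in 25 (59.5%, beside 6.59%). E2F letters were found in 3 members (7.14%, beside 4.51%). The promoters of CDK1, PLK1, CDC20 and CENPA are shown as anchor genes that hold both elements. Each run is the 250 bases before the start on the plus strand, 5′ to 3′, at chr10:60778228-60778477, chr16:23678639-23678888, chr1:43358731-43358980 and chr2:26785806-26786055 in that order, and the capitals mark the homology letters (TTTGAA, or TTCAAA on the other strand) and the CCAAT box (or ATTGG on the other strand).
CDK1: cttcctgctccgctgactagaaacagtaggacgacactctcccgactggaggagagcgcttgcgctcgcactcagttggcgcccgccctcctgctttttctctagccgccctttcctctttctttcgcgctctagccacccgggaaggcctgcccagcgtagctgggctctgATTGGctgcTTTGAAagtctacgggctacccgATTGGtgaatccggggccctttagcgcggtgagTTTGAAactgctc
PLK1: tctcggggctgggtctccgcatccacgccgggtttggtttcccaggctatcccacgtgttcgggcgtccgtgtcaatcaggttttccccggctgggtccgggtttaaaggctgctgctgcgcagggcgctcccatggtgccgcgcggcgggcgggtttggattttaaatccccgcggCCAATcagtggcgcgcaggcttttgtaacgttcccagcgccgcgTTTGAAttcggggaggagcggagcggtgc
CDC20: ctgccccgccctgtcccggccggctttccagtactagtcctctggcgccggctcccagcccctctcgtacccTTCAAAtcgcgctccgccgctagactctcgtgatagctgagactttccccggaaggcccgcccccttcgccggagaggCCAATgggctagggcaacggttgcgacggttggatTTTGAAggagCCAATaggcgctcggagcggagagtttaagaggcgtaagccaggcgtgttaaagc
CENPA: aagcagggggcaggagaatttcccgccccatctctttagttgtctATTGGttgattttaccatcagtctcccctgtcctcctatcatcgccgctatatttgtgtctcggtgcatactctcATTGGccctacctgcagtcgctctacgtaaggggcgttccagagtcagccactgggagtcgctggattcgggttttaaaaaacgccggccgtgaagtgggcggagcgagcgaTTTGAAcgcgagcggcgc
In CDK1 the last homology letters before the start begin 13 bases before it and follow a CCAAT box at 46 bases, and a further match begins at base 10 after the start, beyond the run shown. In PLK1 they begin 29 bases before the start with a CCAAT box at 73 bases, in CENPA 18 bases before it with CCAAT boxes at 130 and 205 bases, and in CDC20 65 bases before it between CCAAT boxes at 100 and 55 bases. The 34 members with a homology match had a median log2 fold change with quizartinib of -5.19, and the 8 without had -6.63. For the combination against quizartinib these medians were 0.97 and 1.73. A match is a description of the letters and not a bound site.

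In the recovery experiment the members were compared by their own lengths, since FPKM is scaled by length. In untreated cells SMC4 was the highest at 245 and 240 FPKM and UBE2C the next at 228 and 245 FPKM, ranges that overlap, followed by PRC1 at 159 and 162 FPKM. Of the 49 genes that passed the filter, KIF14 had the lowest mean, at 7.81 and 6.37 FPKM, a range that holds both values of CDC25C, 7.59 and 7.40 FPKM. SPC25 stayed under 1 FPKM in every library and was not tested. It ran from 0 to 0.572 FPKM in the entry used. A further entry named SPC25 was not used, so these values do not settle the level of the gene. In the drug experiment SPC25 held 11.3, 16.0 and 13.3 CPM with DMSO.

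Survivors of 48 h in 100 nM quizartinib held less RNA of nearly all members. Their summed level was 418 and 426 FPKM, beside 3020 and 3190 FPKM in untreated cells, and the median gene stood at 6.40% and 4.43% of the untreated mean. All 49 tested genes were lower in both survivor libraries than in both untreated libraries, which held for 26.8% of all genes. The test of limma on log2(FPKM + 1) called 24 of 49 lower and 0 higher (48 lower and 0 higher at an unadjusted p under 0.05), where 6.39% of 18098 genes were called lower and 8.14% higher. The median log2 fold change was -3.56. Without replicate 2 of the 13 day group, which enters only through the shared estimate of spread, 48 of 49 were called and SMC4 was not, beside 12.5% of all genes. Leaving out any 1 of the untreated or survivor libraries left a lone library in that group. The median log2 fold change then ran from -3.68 to -3.46, and the calls of the full fit were not kept. The share of all genes called in those fits is not given, so this loss cannot be read as particular to the members.

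CDK1 fell from 79.4 and 88.9 FPKM to 3.77 and 3.52 FPKM in survivors (-4.20 ± 1.07 on the log2(FPKM + 1) scale, limma adjusted p = 0.0492). PLK1 fell from 76.0 and 85.9 to 4.30 and 5.96 FPKM (-3.75 ± 0.91, limma adjusted p = 0.0446). BUB1B fell from 94.3 and 90.0 to 3.68 and 5.83 FPKM (-4.04 ± 0.62, limma adjusted p = 0.0235). These 3 were called, as were CENPA, which went from 34.5 and 34.3 to 4.79 and 4.81 FPKM, and ECT2, which went from 17.4 and 20.7 to 4.46 and 5.37 FPKM. CENPE had the smallest adjusted p of all members, 0.0140, at -3.60 ± 0.38. For several others the values were as far apart but the call was missed. The standard error of each gene takes in its spread in all groups, also between the 13 day libraries. Those held 46.7 and 0.204 FPKM for MKI67 and 4.40 and 1.66 FPKM for CENPE. The order of adjusted p is therefore not an order of change in survivors. MKI67 stood at 95.4 and 80.2 FPKM in untreated cells and 2.44 and 1.16 FPKM in survivors (-5.02 ± 1.52, limma adjusted p = 0.0708). CDC20 stood at 79.7 and 102 against 2.16 and 0.994 FPKM (limma adjusted p = 0.0537), AURKB at 80.7 and 79.3 against 1.95 and 0.838 FPKM (limma adjusted p = 0.0517), and TOP2A at 137 and 157 against 6.38 and 2.37 FPKM (limma adjusted p = 0.0620). FOXM1 stood at 53.3 and 55.0 against 4.89 and 3.10 FPKM and was not called (limma adjusted p = 0.0527). SMC4 again changed least, at 245 and 240 against 198 and 215 FPKM (-0.23 ± 0.22, limma adjusted p = 0.478). Across the 49 genes the survivor fold at 100 nM and the fold with 10 nM at 48 h in the other experiment ranked the genes alike, with Spearman's rho of 0.73 and Pearson's r of 0.78. The points are genes of 1 cell line measured in unconnected libraries, and genes are not independent replicates.

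**Figure D4:**
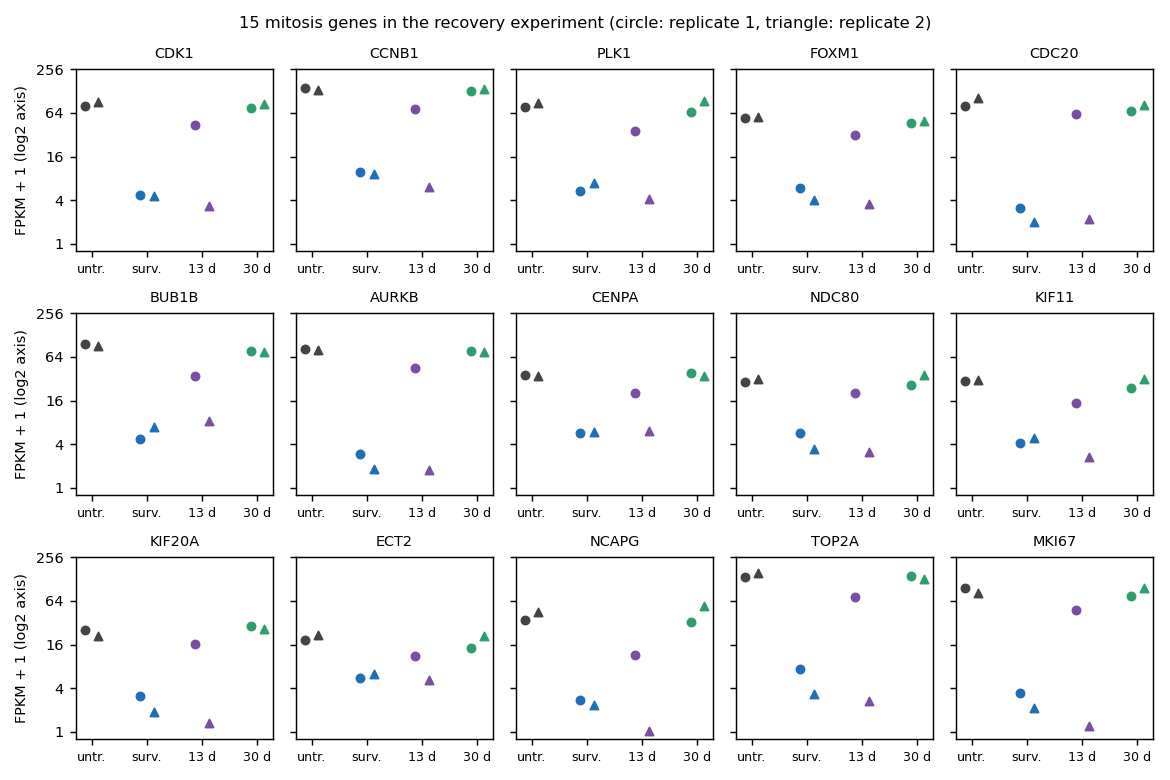
FPKM plus 1 (log2 axis) of the 15 anchor genes in each library of the recovery experiment, with replicate 1 as circles and replicate 2 as triangles. Survivors lie below untreated cells, the 30 day libraries lie near untreated cells, and at 13 days replicate 1 lies between them while replicate 2 lies at or below the survivors for most genes.

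After 13 days off drug the 2 libraries did not agree. The summed level was 1561 FPKM in replicate 1 and 253 FPKM in replicate 2, or 50.3% and 8.16% of the untreated mean. CDK1 stood at 43.3 and 2.31 FPKM, MKI67 at 46.7 and 0.204 FPKM, CDC20 at 61.9 and 1.21 FPKM, and NCAPG at 10.6 and 0.0315 FPKM. Replicate 1 lay between survivors and untreated cells in each of these 4 genes, and replicate 2 lay below or within the survivors. SMC4 was the reverse, at 83.6 FPKM in replicate 1 and 122 FPKM in replicate 2. Both libraries lay below untreated cells in all 49 genes, beside 28.1% of all genes. The limma test called 1 gene lower than in untreated cells, CENPE at -3.07 ± 0.38 (adjusted p = 0.0473), and 0 higher, where 0.249% of all genes were called lower (37 members lower and 0 higher at an unadjusted p under 0.05). Against survivors it called 0 in either direction, beside 0.177% of all genes higher and 0.669% lower (1 higher and 1 lower at an unadjusted p under 0.05). Each answer turned on the library kept. Without replicate 2, no gene was called against untreated cells, beside 0.107% of all genes lower and 0.0452% higher. In the same fit 43 were called higher and 1 lower than in survivors, where 6.50% and 8.73% of all genes were called. Without replicate 1, 49 were called lower than in untreated cells, beside 8.73% of all genes, and 0 higher or lower than in survivors. A fit with a lone library assumes that it varies as the other groups do.

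After 30 days off drug the genes stood near their untreated level. The summed level was 2638 and 3098 FPKM, which reaches into the untreated range of 3020 to 3190 FPKM, and the median gene stood at 84.3% and 103% of the untreated mean. CDK1 was at 75.1 and 83.5 FPKM, PLK1 at 65.6 and 93.9 FPKM, FOXM1 at 45.4 and 48.4 FPKM, and MKI67 at 73.0 and 94.2 FPKM. All but FOXM1 overlap the untreated libraries. Against untreated cells limma called 0 of 49 genes, and 0 at an unadjusted p under 0.05, where 0.0774% of all genes were called higher and 0.0497% lower, and 0 also without replicate 2 of the 13 day group. Both 30 day libraries lay below both untreated libraries in 13 of 49 genes and above in 3, beside 16.8% and 17.5% of all genes. With 2 libraries a group this does not show that the levels are equal. Against survivors, 12 of 49 genes were called higher and 0 lower, where 4.71% of all genes were called higher (48 higher and 0 lower at an unadjusted p under 0.05). The largest of these folds was that of CENPF at 4.93 ± 1.07 (limma adjusted p = 0.0426), and BUB1B (3.75 ± 0.62), CENPA (2.65 ± 0.53) and AURKA (3.01 ± 0.53) were among the 12. Without replicate 2 of the 13 day group 48 were called, beside 11.5% of all genes. Leaving out any 1 survivor or 30 day library left a lone library in that group. The median log2 fold change then ran from 3.28 to 3.58, and the calls of the full fit were not kept. The share of all genes called in those fits is not given either. Against 13 days limma called 0 higher and 0 lower (32 higher and 0 lower at an unadjusted p under 0.05), beside 0.326% and 0.0774% of all genes. Without replicate 2 of the 13 day group it again called 0 higher and 0 lower, with a median log2 fold change of 0.83, beside 0.226% and 0.0452% of all genes. Without replicate 1 it called 48 higher, with a median of 3.79, beside 7.22% of all genes.

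Other genes of the same processes were set beside the members. Of all genes, 30.4% were called lower and 29% higher with quizartinib at 48 h. With the combination over quizartinib, 5.62% were called higher and 4.63% lower. Of 78 further mitosis genes, 76 fell and 1 rose with quizartinib at 48 h, with a median log2 fold change of -2.72. The exception was CDC16, a subunit of the anaphase-promoting complex, at 0.24 (edgeR adjusted p = 4.97e-03). With the combination over quizartinib 26 of the 78 rose and 1 fell, with a median of 0.21, led by CKAP2L, a spindle protein, at 2.90 (edgeR adjusted p = 6.70e-05). Of 30 DNA replication genes, which act earlier in the cycle, all 30 fell with quizartinib (median -3.21), and 6 rose with the combination over quizartinib (median 0.15). Of the 10 core cohesin genes and loaders, which cells also use in interphase, 6 fell and 1 rose with quizartinib, and 0 of 10 were called between the combination and quizartinib. Of 11 measured DREAM and MYB-MuvB regulators, 8 fell and 2 rose with quizartinib. MYBL2, the B-MYB factor that works with FOXM1, fell by 8.55 (log2) and rose by 2.11 with the combination over quizartinib (edgeR adjusted p = 3.09e-04), the 1 call among the 11. These lists were chosen with earlier results of these data known, and the differences between lists were not tested. The homology letters were found in 38 of 63 further mitosis genes with a window (60.3%) and in 2 of 26 replication genes (7.69%), and E2F letters in 14 of 26 replication genes (53.8%).

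Some counts cannot be assigned to 1 gene with certainty. Of the 50 members, 28 are overlapped by another annotated gene in GENCODE 29 and 9 of these on the same strand. The 9 are BUB1B, CCNB2, CENPA, SMC4, NUSAP1, PRC1, KIF18B, ASPM and TOP2A.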

How the data were processed

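RNA of MV4-11 cells was sequenced in 18 libraries of a drug experiment and 8 of a recovery experiment. For the former the authors deposited whole-number counts of each gene, taken as raw because library totals differ. For the latter they deposited FPKM of each gene, per the file headers. The submitters' processing notes name the tools STAR 2.7.3, RSEM, CASAVA, DESeq2 and edgeR for the counts, and TopHat2 2.0.9, Cuffdiff and CASAVA for FPKM, with no role or order given. Whether strand was used, and how FPKM was scaled between libraries, is not given in the sources used here. No column of per-sample values was left unused.

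Sample titles gave the groups and the replicate numbers. The numbers were taken to pair the libraries of a comparison where all 3 same-numbered deviations from the group means correlated above 0.1. They did in 5 of the comparisons of drug groups (0.10 to 0.76): dexamethasone or quizartinib against DMSO, the combination against quizartinib at 48 h, and quizartinib at 5 days against DMSO or against itself at 48 h. Counts were scaled by TMM and fitted with edgeR 4.0.16 (quasi-likelihood, all 18 libraries, R 4.3.3, filterByExpr). These main fits compared group means and did not use the pairing. It entered only in the alternative fit with the replicate number as a block. All 16430 genes passed, so all 50 members were tested. The standard error given with an edgeR fold is the size of the fold divided by the square root of its F statistic. It is not a separate estimate. FPKM was fitted with limma 3.58.1 with a pseudocount of 1 before the log2, on 8 libraries together. A gene entered if 2 or more libraries reached 1 FPKM, as 18098 genes and 49 members did. This scale understates changes of low genes. P-values were adjusted over all genes tested (Benjamini-Hochberg), and a gene was called under 0.05. Exact permutation tests cannot go below p = 0.1 with 3 libraries a group. DESeq2 1.42.0 was an alternative, beside other scalings, filters, pseudocounts, designs and left-out libraries. The models were checked on simulated data. Tables and plots used Python 3.11.15, pandas 2.3.3 and matplotlib 3.10.9, and positions are those of GENCODE 29 on GRCh38. Unnamed entries held 4.74% to 11.4% of the counts of each library.

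The rule for naming genes took 15 anchor genes (CDK1, CCNB1, PLK1, FOXM1, CDC20, BUB1B, AURKB, CENPA, NDC80, KIF11, KIF20A, ECT2, NCAPG, TOP2A and MKI67), the 4 largest and 4 smallest folds of a comparison, and the ends of each role, and not every such gene is printed. The members and lists were chosen with earlier results of these data known. Genes named outside this rule were chosen after their values were seen.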

Additional observations from a re-analysis of the deposited data

Results flagged for a closer look

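The effect of dexamethasone at 48 h differed by its own test between cells with and without quizartinib in 22 of the 50 genes. Each had the larger log2 fold under quizartinib, from a low level there. The difference of effects on the log2 scale was 2.45 for FOXM1, 0.56 for TPX2, 0.79 for CCNB2 and 1.85 for CDC25C among the regulators of entry. It was 1.72 for CDC20, 3.08 for UBE2C and 1.30 for ESPL1 in the anaphase role, and 1.61 for AURKB and 1.84 for BIRC5 in the passenger complex. At the kinetochore it was 1.34 for CENPE, 1.31 for CENPF and 2.72 for HJURP. Among kinesins and spindle proteins it was 3.38 for KIF18B, 2.35 for KIF20A, 1.78 for KIF2C, 2.22 for DLGAP5 and 1.67 for ASPM. It was 2.28 for IQGAP3, and 2.20 for NCAPH, 1.36 for TOP2A, 2.16 for MKI67 and 1.53 for CDCA5 in the chromosome role.

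The effect of dexamethasone with quizartinib also differed between 5 days and 48 h in 7 genes, each with the smaller value at 5 days. The difference was -3.12 for IQGAP3, -2.74 for CDCA5, -2.11 for MKI67, -1.62 for CENPF, -1.52 for TOP2A, -1.45 for CCNB2 and -0.83 for TPX2. All 7 are also among the 22 above, and both differences use the same 48 h quizartinib and combination libraries.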

How the results depend on the processing

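Calls with quizartinib or the combination against DMSO held in all 50 genes under all alternatives run. Relative log expression factors, count filters and leaving out 7SK and 7SL kept each count of calls in the drug experiment within 1.5 times. DESeq2 called 7 higher with dexamethasone, 2 higher at 5 days against 48 h of quizartinib, 2 lower in the combination against quizartinib at 5 days, and 14 lower for the dexamethasone effect at 5 days minus 48 h. Without the libraries numbered 3 at 48 h these were 10, 2 and 4 for the first 3. Fitting only the groups compared gave 0 higher with dexamethasone, 2 lower for quizartinib over time, 2 lower for the combination at 5 days and 2 lower for the 5 day minus 48 h effect, and, in the recovery experiment, 48 for survivors, 0 for 13 days against untreated cells and 48 for 30 days against survivors. Those 3 recovery counts (24, 1 and 12 as reported) were 14, 0 and 7 with a pseudocount of 0.1 and 2, 0 and 1 with no filter. With 1 FPKM in all libraries 13 days gave 2 lower than untreated, 1 lower than survivors, 30 days gave 26 higher than survivors and 1 higher than 13 days. Quantile normalization gave 0 for 13 days against untreated cells. Shares of all genes are not given for these counts, and the cause of the shifts was not tested.

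Leaving out single libraries gave 0 to 4 genes higher with dexamethasone, 30 to 36 higher with the combination over quizartinib at 48 h, 17 to 24 for the interaction, and 29 to 36 lower for the combination over time. It gave 0 higher and 1 to 4 lower for quizartinib over time, 0 to 1 higher and 0 lower for the combination at 5 days, and 3 to 9 lower for the 5 day minus 48 h effect. In the recovery experiment it gave 0 to 48 lower in survivors, 0 to 49 lower at 13 days, 0 to 43 higher and 0 to 1 lower at 13 days than in survivors, 0 to 48 higher at 30 days than in survivors, and 0 to 48 higher at 30 days than at 13 days.

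Some folds changed sign when single libraries were left out (range of the log2 fold in brackets). For the combination over quizartinib at 48 h they were AURKA (-0.323 to 0.0641) and SMC4 (-0.07 to 0.0844), both also positive without the libraries numbered 3 (0.173 and 0.0935). At 5 days they were FOXM1 (-0.0179 to 0.64), CDC20 (-0.458 to 0.563), TOP2A (-0.196 to 0.0566), CCNB1 (-0.0571 to 0.134), MKI67 (-0.0556 to 0.444) and BUB1B (-0.199 to 0.0857). Dexamethasone against DMSO gave sign changes for FOXM1 (-0.0332 to 0.195), CDC20 (-0.0008 to 0.255), TOP2A (-0.0315 to 0.152), BUB1B (-0.0204 to 0.092) and AURKB (-0.0823 to 0.0962), the last also -0.024 without the libraries numbered 3, and the interaction for ECT2 (-0.143 to 0.175), CENPA (-0.106 to 0.15) and CCNB1 (-0.0743 to 0.172). Over time they were TOP2A (-0.15 to 0.0674) and CDK1 (-0.261 to 0.0393) with quizartinib, and CCNB1 (-0.107 to 0.139) with the combination, which was -0.105 without the libraries numbered 3. The 5 day minus 48 h effect changed sign for NCAPG (-0.216 to 0.0642) and ECT2 (-0.216 to 0.101). In the recovery experiment, 30 days against untreated cells changed sign for NDC80 (-0.188 to 0.238), NCAPG (-0.284 to 0.442), ECT2 (-0.476 to 0.0752), CENPA (-0.0326 to 0.117), CCNB1 (-0.0754 to 0.0211), KIF11 (-0.328 to 0.0904), MKI67 (-0.258 to 0.105) and PLK1 (-0.296 to 0.215), and against survivors for SMC4 (-0.194 to 0.106). For 13 days against survivors, 13 of the 15 anchors did, each below 0 without replicate 1 of the 13 day group: NDC80 (-0.493 to 2.22), NCAPG (-1.29 to 2.2), FOXM1 (-0.483 to 2.7), KIF20A (-0.859 to 2.76), ECT2 (-0.178 to 0.905), CDC20 (-0.182 to 4.65), TOP2A (-0.924 to 3.86), CCNB1 (-0.64 to 2.94), KIF11 (-0.744 to 1.72), MKI67 (-1.18 to 4.13), PLK1 (-0.557 to 2.55), CDK1 (-0.49 to 3.25) and AURKB (-0.379 to 4.29), with NCAPG also at -0.452 with a pseudocount of 0.1. No fold was called where its sign had changed. Of 290 further folds that were not called, of genes that are no anchors, 82 changed sign in at least 1 alternative and none was called where it did. That these are given as a count was decided after seeing the data.

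With the replicate number as a block 6 genes were higher with dexamethasone, and the block changed no other count of calls in the drug experiment by over 1.5 times. In the recovery experiment it gave 15 lower in survivors, 0 at 13 days against untreated cells and 2 higher at 30 days against survivors. There, and in the 3 drug comparisons where the numbers were not taken to pair the libraries, they share only a number: correlations of deviations ran from 0.01 to 0.09 over 6 pairs of recovery groups, and from -0.14 to 0.26 in those 3. Over all 15 pairs of drug groups, libraries correlated best with their own number in 73 of 90 checks, a hint from the data and not the design.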
